A study of Mus musculus with 24 samples.

Results

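The miRNAs of the imprinted Dlk1-Dio3 region of chromosome 12 were followed in liver RNA of mice. They were chosen by name, as every listed mature miRNA of the hairpins known from that region, and 81 of the 1291 entries of the small RNA table matched. The rule uses no measured value, but it was set with earlier results of these data known. The mice were male C57BL/6 with a wild type genotype, and 12 of them were sequenced, 4 per group, as small RNA and as long RNA. HFD mice ate a high-fat diet, which brings about fatty liver. HFD plus HQHF mice ate the same diet and were given HQHF, the herbal Huatanqushihuoxue Formula, by gavage after 12 weeks of it. Control mice ate a normal diet and received no formula. Low, medium and high doses of HQHF are mentioned, but which of them these libraries received is not stated. The study kept 9 mice per group.

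Imprinted genes are read from only the copy inherited from one parent. In the Dlk1-Dio3 region the paternal copy gives the protein genes Dlk1, Rtl1 and Dio3, and the maternal copy gives a chain of noncoding RNAs from which these miRNAs are cut. The region is read strongly in the embryo, the placenta, the brain and several endocrine tissues, and is largely silent in adult hepatocytes. Each hairpin can give a mature miRNA from its 5′ side (5p) and from its 3′ side (3p), and the bases just behind the 5′ end, the seed, do most of the target recognition. Several members have known roles in mice: miR-127-3p and miR-136-5p are made opposite to Rtl1 and pair with its RNA, miR-379-5p acts on lipid transport in liver, and miR-134-5p acts in neurons.

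RefSeq sequences (GRCm38.p6) were found for 77 of the 81 members, and all 77 lie on chromosome 12, from 43 hairpins. In that build they form a first block from Mir337 to Mir136, which holds the miRNAs opposite to Rtl1, a last block from Mir379 to Mir410, and the pair Mir341 and Mir370 between them. The members number 15 in the first block, 63 in the last and 3 between. Shown first are the arms of miR-376b, because their balance differed between libraries, with their closest relatives. Capitals mark the seed, bases 2 to 8 from the 5′ end.
miR-376b-3p: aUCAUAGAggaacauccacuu
miR-376a-3p: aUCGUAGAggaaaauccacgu
miR-376b-5p: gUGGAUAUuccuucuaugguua
miR-376c-5p: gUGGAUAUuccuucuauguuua
Counted from the 5′ end, miR-376b-3p differs from miR-376a-3p by G4A, A13C and G20U, the first of which lies in the seed. miR-376b-5p differs from miR-376c-5p by U19G alone, so both share a seed. Reads of such close relatives may be split between them in ways that the deposited counts do not show.

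The next sequences are the most abundant members and the arms of miR-136, the hairpin with the only called member.
miR-127-3p: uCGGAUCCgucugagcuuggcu
miR-379-5p: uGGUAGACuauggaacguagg
miR-411-5p: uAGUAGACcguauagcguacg
miR-382-5p: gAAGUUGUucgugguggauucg
miR-434-5p: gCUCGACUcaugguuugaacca
miR-136-5p: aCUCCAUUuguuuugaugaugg
miR-136-3p: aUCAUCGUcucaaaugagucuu
The 77 sequences hold 72 different seeds, and 5 seeds are shared by 2 members each. One pair is miR-379-5p with miR-1193-5p, another miR-379-3p with miR-411-3p. The members thus share a locus and, with few exceptions, no seed.

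A last pair is shown because the deposited counts do not tell it apart.
miR-299a-5p: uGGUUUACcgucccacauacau
miR-299b-5p: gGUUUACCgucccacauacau
The miR-299b arms lie on the minus strand, opposite to miR-299a, and both of their sequences are contained in those of miR-299a. The counts of miR-299a-5p and miR-299b-5p were identical in 12 of 12 libraries, and those of miR-299a-3p and miR-299b-3p in 4 of 12. The miR-299b arms made up 2.02% to 4.21% of the summed member counts, so the sums are slightly too high where reads were listed under both names. Both hairpins also enter the later counts of members and hairpins as separate entries, so those counts are not of fully separate members.

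The small RNA libraries held 8139110 to 12813800 miRNA counts and the long RNA libraries 33380900 to 46454400 gene counts. Levels are in CPM, a count divided by the library's total and multiplied by 1000000, and differences between groups are log2 fold changes on TMM-scaled libraries. HFD plus HQHF 3 and control 2 went against their label as liver. Their 5 hepatocyte genes summed to 398 and 8504 CPM, against 53550 to 117071 CPM in the other 10, and their white adipocyte genes to 3787 and 12988 CPM. The 3 brown adipocyte genes summed to 6705 CPM in HFD plus HQHF 3 but only 4.85 CPM in control 2. The groups were therefore compared over the other 10 libraries, with those 2 given separately. Among the 10, HFD 3 stood apart too. Its 9 adrenal cortex genes, a list added after the data were seen, summed to 4606 CPM, against 0.903 to 5.07 CPM in the other 9. They include Cyp11b1, an enzyme of corticosteroid synthesis, at 621 CPM, with no read in any of the other 11 libraries. Its 7 adrenal medulla genes summed to 1003 CPM, against at most 0.155 CPM in those 9. The white adipocyte genes summed to 160 CPM in HFD 3, against at most 5.04 CPM. Control 1 held RNA of pancreatic acinar cells, with 1413 CPM over 4 genes, against at most 19.6 CPM in the other 9, and it had the highest cluster sum of the 3 controls. Without control 1 no member was called by edgeR in any comparison. Most results that rest on HFD 3 are given with and without it.

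The cluster was a small part of liver miRNA. Summed over the 81 members it reached 390, 162, 5526 and 294 CPM in HFD 1 to 4. The sums were 83.6, 52.9 and 277 CPM in HFD plus HQHF 1, 2 and 4, and 183, 54.4 and 118 CPM in control 1, 3 and 4. HFD 3 was more than 10 times as high as any of the other 9, and it held 76.9% of the member reads of the 10 libraries. HFD averaged 1593 ± 2624 CPM (SD, n = 4), HFD plus HQHF 138 ± 121 CPM (n = 3) and control 119 ± 64.2 CPM (n = 3). Without HFD 3, HFD averaged 282 ± 115 CPM (n = 3), and its range of 162 to 390 CPM overlapped those of HFD plus HQHF and control. As differences between the groups' means of log2 CPM, which weigh HFD 3 less than the means above, HFD stood 2.42 over control, or 1.33 without HFD 3. On the same scale HFD plus HQHF stood -2.40 against HFD, or -1.31 without HFD 3, and 0.02 against control. These differences use library totals without TMM. On that scale the median log2 fold change of all 406 miRNAs tested was 0.74 in HFD against control. In HFD plus HQHF against HFD it was -0.72. These sums carry no test. In bulk liver RNA, fewer cells of a type and less RNA per cell cannot be told apart.

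**Figure D1:**
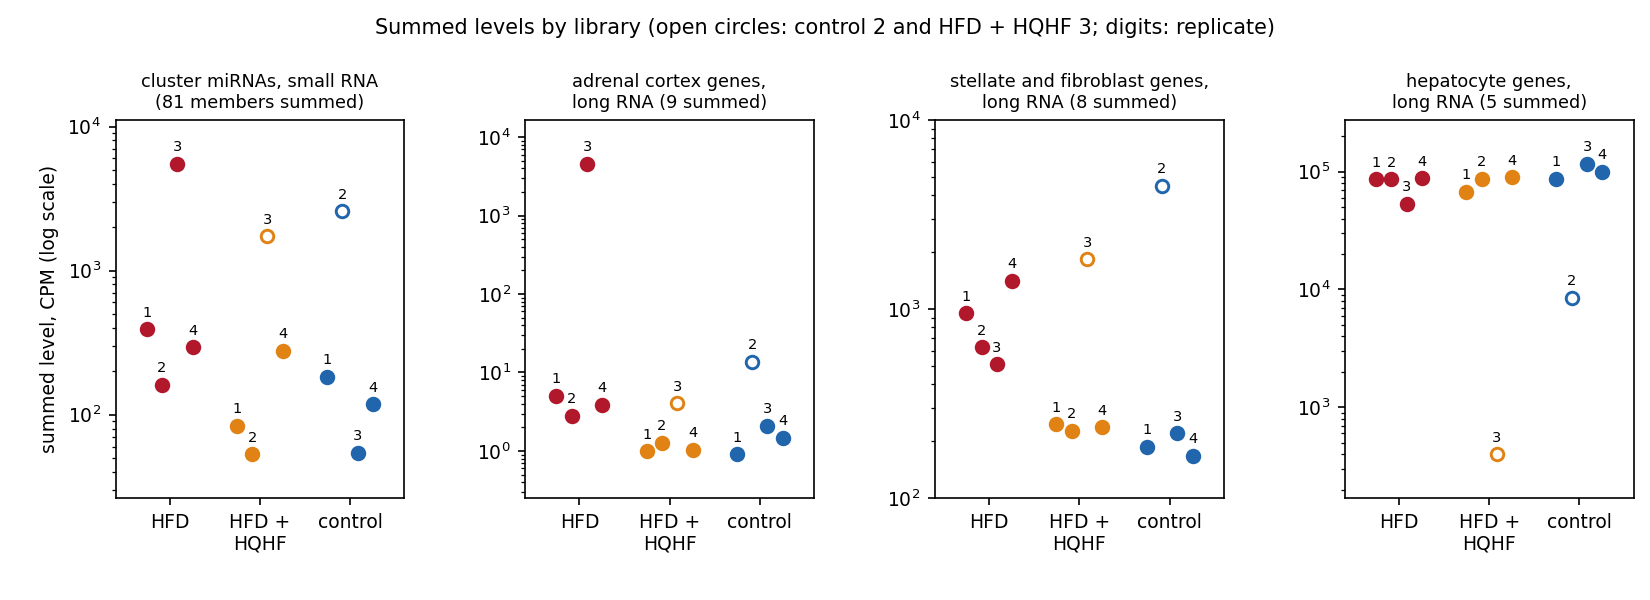
Summed CPM per library on log axes for the 81 cluster miRNAs (small RNA) and for the adrenal cortex, stellate and fibroblast, and hepatocyte gene lists (long RNA), with groups HFD, HFD + HQHF and control and digits for the replicate. HFD 3 is the highest of all 12 for the cluster (5526 CPM) and for the adrenal cortex genes (4606 CPM), and the open circles are the libraries with little hepatocyte RNA.

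Other cell types moved with the groups as well. The 8 stellate cell and fibroblast genes, all 8 of them detected, summed to 510 to 1413 CPM in HFD, 228 to 245 CPM in HFD plus HQHF and 167 to 220 CPM in control. Of these 8, 7 rose in HFD against control, beside 16.3% of 13832 genes called higher. The recruited macrophage genes also rose, 4 of 4, and their sums were at least 92.8 CPM in every HFD library, against 1.28 to 2.80 CPM in control. HFD plus HQHF 4 held 277 CPM of the cluster, close to HFD 4 with 294 CPM, while its stellate genes summed to 236 CPM, against 1413 CPM in HFD 4. HFD 3, with the most cluster RNA, had the lowest stellate gene sum of the HFD group, 510 CPM. The 4 stellate and fibroblast miRNAs, from the same libraries as the cluster, summed to 25118, 13959, 15696 and 25880 CPM in HFD, 6370, 5755 and 5971 CPM in HFD plus HQHF, and 21365, 5693 and 12312 CPM in control. Within control, and within HFD 1, 2 and 4, the library lowest for these miRNAs was also the lowest for the cluster. The cholangiocyte miRNAs of the miR-200 family summed to 7655 and 7880 CPM in HFD 1 and HFD 4, against 349 to 1031 CPM in the other 8. The 3 skeletal muscle miRNAs summed to 524, 120, 151 and 96.7 CPM in HFD 1 to 4. They summed to 14.8, 21.4 and 13.2 CPM in HFD plus HQHF 1, 2 and 4, and to 322, 18.0 and 116 CPM in control 1, 3 and 4. Their median log2 fold change was -3.27 in HFD plus HQHF against HFD and -3.14 in HFD plus HQHF against control. The part of these cell types in the member values was not tested.

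Of the 81 members, 32 passed the filter on low counts, out of 406 miRNAs tested. The other 49 had mean levels of 0 to 4.48 CPM with a median of 0.219 CPM, and 1 of them, miR-758-5p, had no read in the 10 libraries. Among these low members, miR-370-3p, known to act on fatty acid oxidation in human liver cells, reached 4.43 CPM in HFD 3 and at most 0.193 CPM in the other 9. HFD 3 held the highest CPM of the 10 libraries for 79 of the 81 members. The filter keeps a member that is high in 1 group, so counts over the 32 describe only those.

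For the diet itself, HFD was set against control. No member was called in HFD against control by edgeR's quasi-likelihood test at a Benjamini-Hochberg adjusted p under 0.05. Among all 406 miRNAs 7.64% were called higher and 8.62% lower. At an unadjusted p under 0.05, 17 members were higher, among 157 of the 406 miRNAs in either direction, and DESeq2 called 6 members, all higher, beside 13.1% of the 406 that it called higher. The 32 log2 fold changes were all above 0, with a median of 2.80 (1.35 to 4.05), beside 0.13 over all 406. Without HFD 3, 29 members were tested and 26 were above 0, with a median of 0.73 (-0.45 to 1.89), beside 0.08 over all 394. Again none was called by edgeR, beside 10.7% called higher and 8.38% lower, and 3 had an unadjusted p under 0.05. In CPM, the HFD libraries lay above all control libraries for 12 of 32 members, which is 37.5%, beside 37.9% of all 406 miRNAs. They lay below them for none, beside 3.2% of the 406.

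In the first block, miR-127-3p, made opposite to Rtl1, had the highest mean of the members over the 10 libraries but not over the 9 without HFD 3. Its levels were 44.5, 14.2, 1482 and 19 CPM in HFD 1 to 4. miR-127-3p was at 4.51, 7.79 and 15.8 CPM in HFD plus HQHF 1, 2 and 4, and at 27.0, 5.04 and 13.0 CPM in control 1, 3 and 4. All 3 groups overlapped, and HFD 3 alone was far above the rest. Its log2 fold change in HFD against control was 4.01 ± 1.71 (SE, edgeR adjusted p = 0.121), and 0.34 ± 0.62 without HFD 3 (adjusted p = 0.732).

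miR-434-3p, of the neighbouring hairpin, was at 8.97, 3.67, 210 and 4.15 CPM in HFD and at 6.27, 0.926 and 5.83 CPM in control. Its log2 fold change in HFD against control changed sign with HFD 3, at 3.01 ± 1.5 with it and -0.07 ± 0.62 without it (SE, edgeR adjusted p = 0.163 and 0.929). miR-136-5p and miR-329-5p also turned below 0 without HFD 3, at -0.38 and -0.45.

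In the last block, miR-379-5p was at 66.9, 29.4, 649 and 40.2 CPM in HFD, 11.5, 8.36 and 41.9 CPM in HFD plus HQHF, and 29.5, 8.44 and 18.8 CPM in control. It was the most abundant member in 8 of the 9 libraries other than HFD 3, control 2 and HFD plus HQHF 3. Its log2 fold change in HFD against control was 2.69 ± 1.17 (SE, edgeR adjusted p = 0.125), and 0.79 ± 0.61 without HFD 3 (adjusted p = 0.360). miR-411-5p, from the next hairpin, was at 43.4, 21.7, 427 and 34.0 CPM in HFD, 10.1, 6.53 and 35.8 CPM in HFD plus HQHF, and 22.4, 6.79 and 14.9 CPM in control. HFD plus HQHF 4 reached the HFD level for both miRNAs, and HFD plus HQHF 1 and 2 lay below every HFD library.

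miR-382-5p had the highest log2 fold change of the 32 in HFD against control, 4.05 ± 1.5 (SE, edgeR adjusted p = 0.0888). Its levels were 16.6, 6.18, 399 and 17.9 CPM in HFD and 7.0, 1.85 and 3.39 CPM in control. Without HFD 3 the log2 fold change was 1.20 ± 0.57 (adjusted p = 0.146). miR-409-3p, with the smallest adjusted p of the members, was at 7.26, 2.32, 72.5 and 9.38 CPM in HFD, against 2.09, 0.515 and 1.27 CPM in control. Its groups did not overlap, and its log2 fold change was 3.44 ± 1.24 (edgeR adjusted p = 0.0852), or 1.73 ± 0.74 without HFD 3 (adjusted p = 0.115). miR-300-3p and miR-494-3p had 3.19 ± 1.20 and 2.69 ± 1.02 (adjusted p = 0.0936 for both), and 1.19 and 1.89 without HFD 3.

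**Figure D2:**
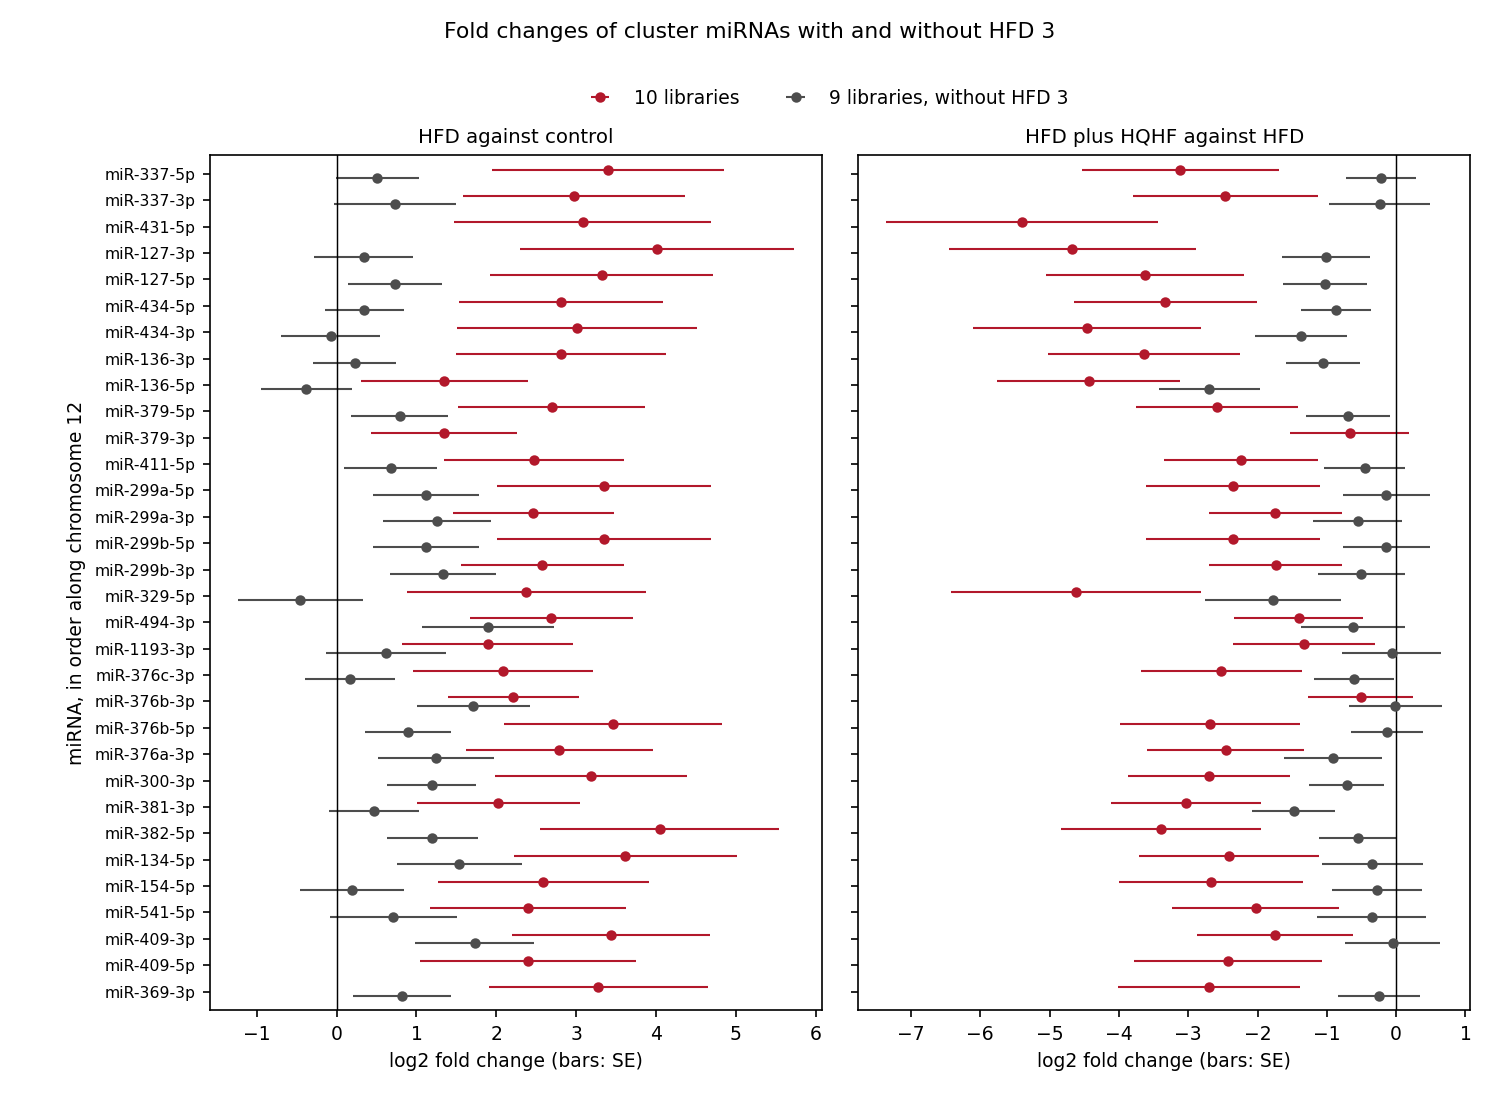
log2 fold changes with SE of the tested cluster miRNAs in HFD against control (left) and HFD plus HQHF against HFD (right), with 10 libraries (red) and with 9, without HFD 3 (grey). The medians are 2.80 and 0.73 on the left and -2.55 and -0.55 on the right, and 3 members were tested only with HFD 3.

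miR-376b-3p, the marker of the cluster here, was at 29.6, 11.8, 84.6 and 38.1 CPM in HFD. It was at 13.7, 3.09 and 38.4 CPM in HFD plus HQHF and at 6.02, 3.91 and 6.14 CPM in control. Every HFD library was above every control library, and HFD plus HQHF spanned both. The log2 fold change of miR-376b-3p in HFD against control was 2.21 ± 0.82 (SE, edgeR adjusted p = 0.0877), and 1.71 ± 0.71 without HFD 3 (adjusted p = 0.108). That difference missed the threshold here, and passed it with library totals in place of TMM (2.93, edgeR adjusted p = 0.0375), with library totals without HFD 3 (2.30, adjusted p = 0.0473), with DESeq2 (2.18, adjusted p = 0.0182) and with the replicate block (2.56, edgeR adjusted p = 0.0484). Library totals also move the median of all 406 miRNAs to 0.74 in HFD against control and to -0.72 in HFD plus HQHF against HFD. The other arm, miR-376b-5p, was at 6.32, 4.44, 133 and 5.53 CPM in HFD, 2.08, 1.72 and 6.99 CPM in HFD plus HQHF, and 3.19, 1.03 and 2.01 CPM in control.

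The balance of the arms set HFD 3 apart. The 3p arm made up 82.4%, 72.6% and 87.3% of miR-376b reads in HFD 1, 2 and 4, and 38.8% in HFD 3 (841 of 2165 reads, exact 95% binomial interval 36.8% to 40.9%). It made up 86.8%, 64.3% and 84.6% in HFD plus HQHF 1, 2 and 4, and 65.3%, 79.2% and 75.3% in control 1, 3 and 4. The lowest of these 9, HFD plus HQHF 2, rests on 27 of 42 reads, with an interval of 48.0% to 78.4%, which still lies above that of HFD 3. HFD plus HQHF 3 and control 2 had 40.03% (36.5% to 43.7%) and 27.8% (23.0% to 33.1%). The intervals cover counting error only, since reads without molecular identifiers are not independent molecules.

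**Figure D3:**
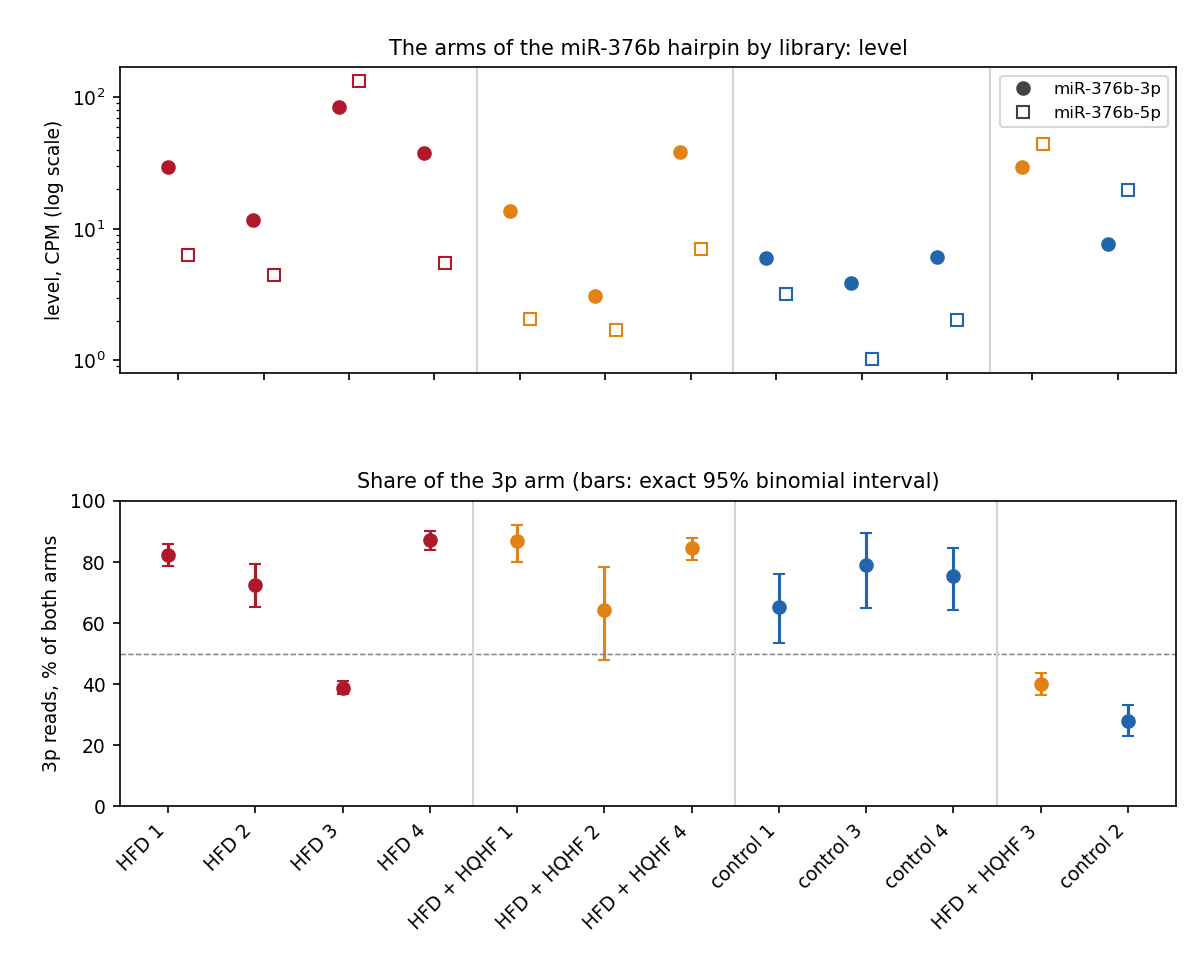
Level in CPM on a log axis of both arms of miR-376b (top, circles 3p, squares 5p) and the 3p share of their reads in percent with its exact 95% binomial interval (bottom), by library, coloured by group. The 3p arm is the lower one in HFD 3, HFD + HQHF 3 and control 2, at 38.8%, 40.03% and 27.8%, and the higher one in the other 9 libraries.

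Such a change of the leading arm was rare in the cluster. Both arms were listed for 36 hairpins, and 20 of these had at least 100 reads over the 9 libraries and at least 20 in each of HFD 3, HFD plus HQHF 3 and control 2. The arm with most reads in HFD 3 differed from that of the pooled 9 for 1 of the 20, miR-376b. In control 2 it also differed for miR-369 and miR-434, whose 3p arms held 45.6% and 65.7%, against 71.2% and 31.5% in the pooled 9. The miR-127 hairpin kept its 3p arm ahead throughout, at 96.0% in HFD 3 and 86.7% to 94.6% in the 9.

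The make-up of the cluster differed in the same 3 libraries. miR-127-3p held 26.8% of the member counts in HFD 3, 24.3% in HFD plus HQHF 3 and 23.7% in control 2, against 5.39% to 14.8% in the other 9. The share of miR-376b-3p was 1.53%, 1.69% and 0.298%, against 3.29% to 16.3%. The first block held 44.8%, 41.0% and 39.3% of the counts, against 14.3% to 34.9%. Against the mean of the 9, members were 5.06 times (miR-376b-3p) to 88.4 times (miR-127-3p) as high in HFD 3, with a median of 26.5. For control 2 the ratios ran from 0.459 (miR-376b-3p) to 54.1 (miR-431-5p), and for HFD plus HQHF 3 from 1.75 (miR-376b-3p) to 25.2 (miR-127-3p). miR-376b-3p thus had the lowest ratio of the 32 in all 3 libraries. These ratios are a description and carry no test.

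**Figure D4:**
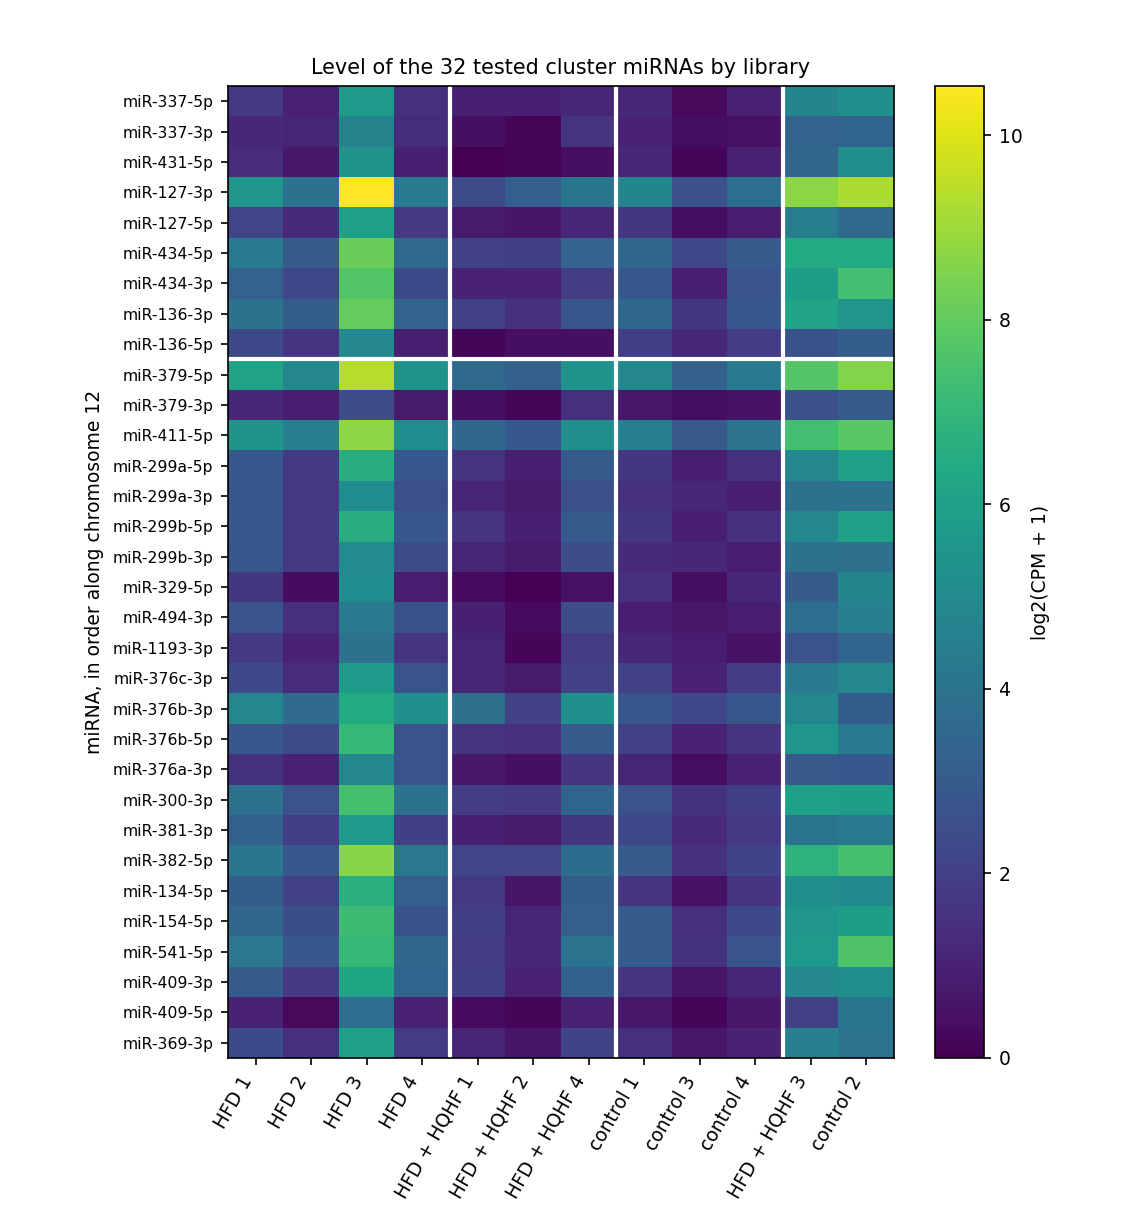
Level of the 32 tested cluster miRNAs as log2(CPM + 1) by library, in order along chromosome 12, with a horizontal line after the first block and the columns HFD, HFD + HQHF, control, and then HFD + HQHF 3 and control 2. HFD 3 is bright in nearly every row, from 1482 CPM for miR-127-3p to 4.43 CPM for miR-379-3p.

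For the formula, HFD plus HQHF was set against HFD, and 1 of 32 members was called, miR-136-5p, which was lower, beside 9.36% of all 406 miRNAs called lower and 10.6% called higher. At an unadjusted p under 0.05, 11 members were lower, and 173 of the 406 differed in either direction. All 32 log2 fold changes were below 0, with a median of -2.55 (-5.40 to -0.51), beside -0.13 over all. Without HFD 3, the 29 tested were still below 0 but with a median of -0.55 (-2.69 to -0.01), beside -0.12 over all 394. There too 1 was called lower, beside 15.7% of all miRNAs, and none higher, beside 11.4%. The HFD plus HQHF libraries lay below all HFD libraries for 6 of 32 members, beside 41.6% of the 406, and above them for none, beside 2.96%. This comparison shares the HFD libraries, HFD 3 included, with the comparison against control.

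miR-136-5p was at 0.116, 0.344 and 0.333 CPM in HFD plus HQHF 1, 2 and 4, which are 1, 3 and 3 reads. It was at 4.06, 2.12, 30.5 and 0.889 CPM in HFD, and at 2.83, 1.24 and 2.75 CPM in control. The HFD plus HQHF libraries lay below every library of both other groups. It fell in HFD plus HQHF against HFD, with a log2 fold change of -4.44 ± 1.32 (SE, edgeR adjusted p = 0.0456), and -2.69 ± 0.73 without HFD 3 (adjusted p = 0.0255). Leaving out HFD 1, any HFD plus HQHF library or any control library ended the call (adjusted p 0.0613 to 0.158), as did using all 12 libraries (adjusted p = 0.223), where HFD plus HQHF 3 has 5.37 CPM. Its other arm, miR-136-3p, was not called, with 3.12, 1.83 and 6.10 CPM in HFD plus HQHF, against 14.7, 7.63, 264 and 9.18 CPM in HFD (log2 fold change -3.64 ± 1.38, adjusted p = 0.0826; -1.05 ± 0.53 without HFD 3, adjusted p = 0.171).

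miR-376b-3p differed least of the 32 between HFD plus HQHF and HFD, with a log2 fold change of -0.51 ± 0.76 (SE, edgeR adjusted p = 0.626), or -0.01 ± 0.68 without HFD 3. miR-431-5p had the lowest, -5.40 ± 1.96 (adjusted p = 0.0732), and did not pass the filter without HFD 3.

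HFD plus HQHF was also set against control. No member was called by edgeR, beside 0.739% of the 406 miRNAs higher and 0.493% lower, and none by DESeq2. At an unadjusted p under 0.05 there was 1 member, miR-136-5p, among 119 of the 406. The log2 fold changes were above 0 for 20 of 32, with a median of 0.35 beside -0.03 over all. In CPM, HFD plus HQHF lay above all control libraries for no member, beside 22.2% of the 406, and below them for 1, beside 17% of the 406. miR-136-5p had -3.09 ± 1.34 (SE, edgeR adjusted p = 0.169) and was called in 2 of the alternatives, with only the libraries of the 2 groups (-3.01, adjusted p = 0.0107) and without HFD 3 (-3.07 ± 0.74, adjusted p = 0.0425). Without HFD 3 that stands beside 5.58% of all miRNAs then called lower and 5.08% higher. HFD 3 is in neither of these groups, but it enters the spread that the groups share in the fit. miR-376b-3p had 1.71 ± 0.83 (adjusted p = 0.212) and miR-409-3p 1.69 ± 1.23 (adjusted p = 0.413).

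With all 12 libraries, 35 members were tested and none was called by edgeR in any comparison, with 3, 1 and 1 at an unadjusted p under 0.05. Of all 414 miRNAs tested there, only 3, 2 and 0 were called, and 68, 71 and 79 had an unadjusted p under 0.05. The median log2 fold changes of the 35 members were 1.58 in HFD against control, -1.60 in HFD plus HQHF against HFD and -0.02 in HFD plus HQHF against control. The 2 libraries added here were high for the cluster, HFD plus HQHF 3 with 1733 CPM and control 2 with 2580 CPM. The leading member of HFD plus HQHF 3 was miR-127-3p with 422 CPM, followed by miR-379-5p with 211 CPM and miR-411-5p with 161 CPM. Control 2 held 611 CPM of miR-127-3p, 380 CPM of miR-379-5p, 226 CPM of miR-411-5p and 193 CPM of miR-541-5p.

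Of 8 genes of the region looked up by symbol in the long RNA of the same mice, 4 were found, all protein genes. The noncoding Meg3, Rian, Mirg and Dio3os had no entry under these symbols. Dlk1 (ENSMUSG00000040856), which encodes a membrane protein that holds back fat cell formation, had 1884 reads in HFD 3 (52.0 CPM) and 10 reads in the other 9 libraries together. Rtl1 (ENSMUSG00000085925), needed in the placenta, had 77 reads in HFD 3 (2.13 CPM) and 1 read in the other 9. HFD plus HQHF 3 and control 2 had 48 and 3 reads of Dlk1, and 0 and 3 of Rtl1. Dio3, which inactivates thyroid hormone, had at most 6 reads in any library, and Begain at most 16. None of the 4 passed the filter on low counts. Fitted without the filter none was called by edgeR in any comparison. Dlk1 alone had an unadjusted p under 0.05, in HFD against control (adjusted p = 0.130) and in HFD plus HQHF against HFD (adjusted p = 0.147). DESeq2 gave no adjusted p for Dlk1 or Rtl1. Both maternal miRNAs and paternal genes of the region were thus highest in the same mouse of the 10, whose adrenal genes were high, and the part of adrenal RNA in this was not tested.

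Genes next to the region did not move as a block. Of 10 flanking genes, 2 rose and 1 fell in HFD against control, beside 16.3% of 13832 genes called higher and 9.89% lower, with a median log2 fold change of 0.01 beside 0.06 over all. Evl, a regulator of actin, was at 14.7, 8.73, 12.6 and 14.3 CPM in HFD, against 3.5, 2.38 and 2.23 CPM in control. It rose by a log2 fold change of 1.63 ± 0.24 (SE, edgeR adjusted p = 0.00323). Degs2, an enzyme of ceramide synthesis, rose by 3.97 and the chaperone gene Hsp90aa1 fell by 1.05 on the log2 scale (adjusted p = 0.0386 and 0.0330). miR-342-3p, which is made from Evl and lies outside the chosen names, rose by 0.99 ± 0.23 (adjusted p = 0.0275). Its levels were 573, 291, 595 and 819 CPM in HFD, against 240, 129 and 169 CPM in control. Both Evl and miR-342-3p fell in HFD plus HQHF against HFD, by 1.4 for Evl and 1.06 for miR-342-3p on the log2 scale (adjusted p = 0.00646 and 0.0176), beside 11.1% of genes and 9.36% of miRNAs called lower. Both kept these calls without HFD 3, where 4 of the 10 flanking genes were lower in HFD plus HQHF against HFD, beside 14.2% of genes.

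Genes that keep or remove imprints include Dnmt1, which copies DNA methylation, and its partner Uhrf1. Of 15, 12 were tested, and 4 rose in HFD against control while none fell, beside 16.3% of all genes called higher and 9.89% lower. Uhrf1 was at 2.37, 1.77, 0.497 and 2.52 CPM in HFD, against 0.248, 0.160 and 0.145 CPM in control (log2 fold change 2.70 ± 0.61, edgeR adjusted p = 0.0117), and Dnmt1, Dnmt3a and Aff3 rose by 0.76, 0.76 and 1.39. With HQHF, Uhrf1, Dnmt1, Dnmt3a and Tet1 fell against HFD, beside 11.1% of genes called lower. Zfp445, which guards imprints, rose by 0.59 (edgeR adjusted p = 0.0351), beside 7.85% of genes called higher. The counts were the same without HFD 3, beside 9.98% of genes then called higher, with Trim28 in place of Tet1.

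Of 20 other imprinted genes listed, 15 were tested, and 4 rose and 1 fell in HFD against control, beside 16.3% of all genes called higher and 9.89% lower. Plagl1, a growth-restraining transcription factor, was at 2.28, 1.66, 1.55 and 3.79 CPM in HFD, against 0.294, 0.434 and 0.218 CPM in control (log2 fold change 2.30 ± 0.44, edgeR adjusted p = 0.00650). Grb10, an inhibitor of insulin signalling, rose by 1.45, Igf2 by 1.34 and Nnat by 5.80, and the amino acid transporter gene Slc38a4 fell by 0.96. Without HFD 3, Plagl1, Grb10 and Slc38a4 remained called, beside 17.2% of genes then called higher and 11.2% lower. Igf2 did not (1.11, edgeR adjusted p = 0.0835), and Nnat was no longer tested. Nnat was at 8.45 CPM in HFD 3, against at most 0.732 CPM in the other 9. Against HFD, 3 of the 15 fell in HFD plus HQHF, Plagl1, Grb10 and Igf2, by 1.55, 1.54 and 1.76 on the log2 scale, beside 11.1% of all genes called lower. Without HFD 3, 4 of 14 fell, these 3 and Igf2r, beside 14.2% of genes.

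Of 12 genes tested that cut, edit or carry miRNAs, none was called in HFD against control by edgeR, beside 26.2% of all genes. At an unadjusted p under 0.05 there was 1, Adar, which was called higher without HFD 3, and DESeq2 called none. Xpo5, which exports hairpins from the nucleus, was the 1 that fell in HFD plus HQHF against HFD, beside 18.9% of all genes called in either direction. It had a log2 fold change of -0.52 ± 0.14 (SE, edgeR adjusted p = 0.0295), and -0.56 ± 0.15 without HFD 3 (adjusted p = 0.0234). Between HFD plus HQHF and control, edgeR called none of the 13832 genes, with 1008 at an unadjusted p under 0.05, and DESeq2 called 72.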

How the data were processed

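Whole-number counts for each mature miRNA and each gene were deposited. Per the submitters' processing notes HISAT2, RSEM and GRCm39 were used, without versions, and the sources used here do not give the roles of the tools or the miRNA reference. No deposited values were normalized. Counts were tested in R 4.3.3 with edgeR 4.0.16 (filterByExpr by group, TMM, robust quasi-likelihood fit of the 3 groups in 10 libraries, Benjamini-Hochberg over all features, SE from the fold change and F), and with DESeq2 1.42.0 as an alternative. The procedure was tested on simulated data with the same spread for every miRNA or gene. They held no outlying library such as HFD 3, so the simulation does not cover that case. CPM uses the library total, which makes a level depend on the other RNAs of the library. Figures were drawn with matplotlib 3.10.9. The codes in the labels differ for every mouse, and batch could therefore not enter a fit. The members and lists were chosen with earlier results of these data known, and the adrenal lists after the data were seen. Members were named if they were the marker miR-376b-3p, among the 8 highest by mean CPM, among the 6 highest or lowest log2 fold changes of those called, or the 5 smallest p of a comparison without calls, among the 5 highest in control 2 or HFD plus HQHF 3, or the other arm of such a hairpin; of the lists, the 2 genes with the smallest p, or all called where 5 or fewer. Members and hairpins outside this rule, such as miR-370-3p, miR-431-5p and miR-369, were named after their values were seen.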

Additional observations from a re-analysis of the deposited data

Results flagged for a closer look

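In a group of 4 libraries, a value was singled out when its gap to the nearest other, as a share of the whole range, was above Dixon's 95% critical value, which chance does for about 1 in 20 groups. Of 28 quantities examined in HFD, 24 were singled out, each time with HFD 3 as the high library. They share that library and are not independent of each other. Many of the members were named by values from these same libraries, such as the highest mean CPM. HFD 3 held 76.9% of the member reads of the 10 libraries. The 24 of 28 is therefore no test against the 1 in 20 of chance. The summed level of the cluster was 5526 CPM in HFD 3, against 162 to 390 CPM in the other 3 HFD libraries. Among the members singled out were miR-127-3p at 1482 CPM, miR-379-5p at 649 CPM, miR-411-5p at 427 CPM, miR-382-5p at 399 CPM, miR-434-5p at 288 CPM, miR-136-3p at 264 CPM, miR-434-3p at 210 CPM, miR-300-3p at 171 CPM, miR-541-5p at 133 CPM and miR-409-3p at 72.5 CPM. So were miR-376b-5p at 133 CPM, miR-127-5p at 62.0 CPM, miR-329-5p at 34.0 CPM, miR-136-5p at 30.5 CPM, miR-409-5p at 13.5 CPM, miR-382-3p at 12.2 CPM, miR-300-5p at 9.86 CPM, miR-379-3p at 4.43 CPM, miR-329-3p at 3.62 CPM, miR-411-3p at 2.21 CPM and miR-541-3p at 1.51 CPM. Among the protein genes of the region, Dlk1 was singled out at 52.0 CPM and Rtl1 at 2.13 CPM. miR-376b-3p and miR-494-3p, at 84.6 and 19.4 CPM in HFD 3, were not. The adrenal genes of that library are given in the report, and their part in these values was not tested.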

How the results depend on the processing

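In HFD against control, where no member was called, 6 were called with DESeq2, beside 13.1% of the 406 miRNAs that it called higher. There were 7 with library totals, 6 at an adjusted p under 0.1, 1 with the replicate block and 1 with library totals without HFD 3. For HFD plus HQHF against HFD, where 1 was called, there were 3 with DESeq2, 5 with library totals, 9 at an adjusted p under 0.1 and 2 with library totals without HFD 3. There were 0 with all 12 libraries, no filter, the CPM filter, only the 2 groups, the replicate block or the 11 libraries other than HFD 3. For HFD plus HQHF against control, where none was called, 1 was with only the 2 groups. Library totals moved the median log2 fold change of all 406 miRNAs to 0.74 in HFD against control and to -0.72 in HFD plus HQHF against HFD. The shares of all miRNAs called with library totals, the replicate block or an adjusted p under 0.1 are not given here. Nor is that of DESeq2 in HFD plus HQHF against HFD. Those member counts therefore stand without a background and are no result about the cluster. Leaving out 1 library at a time gave 0 to 0, 0 to 1 and 0 to 1 calls in the 3 comparisons. The log2 differences of the summed levels then ran from 1.33 to 3.02, from -3.09 to -1.31 and from -0.67 to 0.53, the last from -0.67 without HFD plus HQHF 4 to 0.53 without HFD plus HQHF 2, and at -0.46 without control 3. Without miR-122-5p in the total they were 2.16, -2.15 and 0.01. The cause of these shifts was not tested. The 4 protein genes of the region gave 0 calls under every alternative run. None of the 4 passed the filter on low counts in the main fit or without HFD 3. A count of 0 in such a fit tested none of them and shows no absence of a difference. The 9-library and 11-library fits were chosen after seeing the data, and in the 11 libraries the median member log2 fold changes were -0.43, 0.33 and -0.07. The replicate numbers were taken as labels only: same-numbered mice are different mice, and their miRNA deviations correlated at -0.37 to 0.28.

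With 462 to 5001 member reads in the 9 libraries, low members rest on few reads, and 49 of the 81 were not tested. The p-values measure the spread between 3 or 4 mice per group, and a difference that missed the threshold is not shown to be absent.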

Other observations

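Among miRNAs of other imprinted loci, 45 were listed and 6 tested. Of these, miR-467c-5p, miR-467d-5p and miR-467e-5p, from a large miRNA cluster in the imprinted gene Sfmbt2, rose in HFD against control by log2 fold changes of 1.77, 2.12 and 1.30 (edgeR adjusted p = 0.0305, 0.0355 and 0.0362), beside 7.64% of all miRNAs called higher. Without HFD 3, miR-467c-5p and miR-467e-5p were still called, at 2.03 and 1.20, beside 10.7% of all miRNAs called higher. miR-467d-5p was then no longer tested. Against HFD, miR-467c-5p, miR-467e-5p and miR-669c-5p fell in HFD plus HQHF by 1.90, 1.11 and 1.32 on the log2 scale, beside 9.36% of all miRNAs called lower. Without HFD 3, miR-467c-5p and miR-669c-5p were still called lower, beside 15.7% of all miRNAs. Their log2 fold changes were -2.14 and -1.13 (edgeR adjusted p = 0.00944 and 0.0325). The fall of miR-467e-5p was then 1.00 (edgeR adjusted p = 0.0555) and was not called.

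Of 14 further miRNAs listed near the region but outside the chosen names, 4 passed the filter, the arms of miR-342 and miR-345. Both miR-345 arms rose in HFD plus HQHF against HFD, by 0.99 for miR-345-3p and 0.69 for miR-345-5p on the log2 scale (edgeR adjusted p = 0.0144 and 0.0470), while both miR-342 arms fell. Of all 406 miRNAs, 10.6% were called higher and 9.36% lower in that comparison. The other 10 never exceeded 1.11 CPM, the level of miR-673-5p in HFD 3.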
